A study of Mus musculus with 4 samples.

Results

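A set of 10 genes of prostaglandin synthesis, breakdown and reception was followed in mouse colon: Ptgs1, Ptgs2, Ptges, Ptgds, Hpgd, Hpgds and Ptger1 to Ptger4. They were taken by gene symbol, and all 10 were found among the 46095 symbols of the count table. The set was chosen with earlier results of these data known. Each library is total RNA of the colon of C57BL/6 mice, aged 21 days after birth. Of the 4 libraries, 2 are labelled WT (wild type) and 2 Esr2-KO (genotype Esr2-/-, Esr2 being the gene of estrogen receptor β). How the Esr2 allele was made is not stated in the labels. The submitters' design text speaks of triplicates, while the samples used here are 2 per genotype. Nothing in the labels ties a library to an animal of its own, so p-values measure only the spread between these libraries. The labels also leave out the position within the colon and the hour of collection, and an effect of either cannot be told apart from that of the genotype.

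Prostaglandins are short-lived lipid signals made from arachidonic acid, which phospholipases A2 free from membranes. The cyclooxygenases Ptgs1 (COX-1, largely constitutive) and Ptgs2 (COX-2, largely induced) turn it into prostaglandin H2. Terminal synthases then make prostaglandin E2 (Ptges) or D2 (Ptgds and Hpgds), and Hpgd, the 15-hydroxyprostaglandin dehydrogenase, starts their breakdown. Prostaglandin E2 acts on the receptors EP1 to EP4, encoded by Ptger1 to Ptger4. EP2 and EP4 raise cyclic AMP, EP3 mostly lowers it and EP1 raises calcium. In the gut this pathway is known for mucosal protection, repair, motility and a part in colon tumours.

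The promoter stretches of Ptgs2, Ptger3 and Ptger4 are shown because the most inducible synthesis gene and the pair of receptors with the largest opposite differences are the members the results turn on. Each runs 5′ to 3′ along the gene's strand from 200 bases before the RefSeq start site to 30 bases after it (GRCm38.p6). Capitals mark matches to a GC box, a CCAAT box, the core of a cyclic AMP response element or an E-box.
Ptgs2 (chr1:150099831-150100060, plus strand): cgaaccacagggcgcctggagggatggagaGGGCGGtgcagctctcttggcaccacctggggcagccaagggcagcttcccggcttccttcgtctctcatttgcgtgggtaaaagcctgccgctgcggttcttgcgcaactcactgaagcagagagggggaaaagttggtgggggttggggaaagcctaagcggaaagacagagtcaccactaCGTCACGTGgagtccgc
Ptger3 (chr3:157566676-157566905, plus strand): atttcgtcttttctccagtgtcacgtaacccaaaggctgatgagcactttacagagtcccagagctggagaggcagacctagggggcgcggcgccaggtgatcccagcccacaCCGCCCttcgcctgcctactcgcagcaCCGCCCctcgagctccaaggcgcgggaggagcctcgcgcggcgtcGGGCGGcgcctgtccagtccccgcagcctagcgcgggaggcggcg
Ptger4 (chr15:5244158-5244387, minus strand): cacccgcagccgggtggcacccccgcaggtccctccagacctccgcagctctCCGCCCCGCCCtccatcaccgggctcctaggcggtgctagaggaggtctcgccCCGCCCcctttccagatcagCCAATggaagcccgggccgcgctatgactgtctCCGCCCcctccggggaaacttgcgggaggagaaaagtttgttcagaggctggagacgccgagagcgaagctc

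Motifs were searched on both strands in windows of 300 bases, 250 before and 50 after the start site, which the RefSeq table held for 9 members. The GC box GGGCGG occurred in 5 of the 9 windows, those of Ptgs2, Ptges, Hpgd, Ptger3 and Ptger4, and in 35.7% of all 32851 windows. Ptger4 carried 4 GC boxes and a CCAAT box, and Ptger3 carried 3 GC boxes. The CCAAT box was in 2 member windows (Ptger2 and Ptger4) and in 37.4% of all. Ptgs2 alone among the 9 held TGACG, the core of the cyclic AMP response element, and the E-box CACGTG, which overlap just after its start site, and which were in 20.8% and 7.15% of all windows. No member window held the full estrogen response element (GGTCA, NNN and TGACC in a row), present in 0.07% of all windows. Its core GGTCA was in 2 member windows (Ptgs1 and Ptges), against 40.5% of all. These are matches of letters in a short window and do not show binding.

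Library totals ran from 30826790 to 33709643 counts. Levels are CPM, counts relative to the library total after TMM, a correction for composition, and 3 counts correspond to 0.0826 to 0.114 CPM. One library stands apart: transcripts of 31 genes of pancreatic acinar cells took 18.6% of the counts of Esr2-KO 2, while the other libraries held 0.0494% (WT 1), 0.0545% (WT 2) and 0.190% (Esr2-KO 1). The colon epithelial markers (Epcam, Krt8, Krt20, Cdh1, Vil1, Car1, Slc26a3, Aqp8 and Lgals4) were all detected, and their summed level was 14972, 17686, 14457 and 14288 CPM in the same order. Of these markers Car1, a carbonic anhydrase, fell, from 3002 and 6491 CPM in WT to 1112 and 1082 CPM in Esr2-KO (log2 fold change -2.11 ± 0.39, SE, n = 2 per group, edgeR adjusted p = 0.0469), and the other 8 did not pass. Esr2 itself was counted 21 and 13 times in the WT libraries, against 6 and 16 times in the Esr2-KO ones, a log2 fold change of -0.32 ± 0.77 (SE, n = 2 per group, edgeR adjusted p = 0.854), too few counts over the whole gene to check the labels.

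None of the 9 members that could be tested reached an adjusted p under 0.05 (edgeR quasi-likelihood, Benjamini-Hochberg over all genes), while 2.69% of the 17169 genes tested did, 1.3% higher (223) and 1.39% lower (239) in Esr2-KO. At an unadjusted p of 0.05, 2 members passed, Ptger4 and Ptger3, or 22.2% of those tested against 20.6% of all genes. DESeq2 called these 2 members and limma-voom called none. In Ptgs1, Ptges, Ptger3 and Ptger4 the WT and Esr2-KO libraries did not overlap, 4 of 9 members or 44.4%, against 54.7% of all genes. The members' median log2 fold change was -0.29, against -0.003 for all genes tested, and 6 were negative and 3 positive. The members' median was -0.04 without WT 1, and -0.45 with library totals, which moved that of all genes to -0.17. Ptgds was left out by the filter on low counts.

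**Figure D1:**
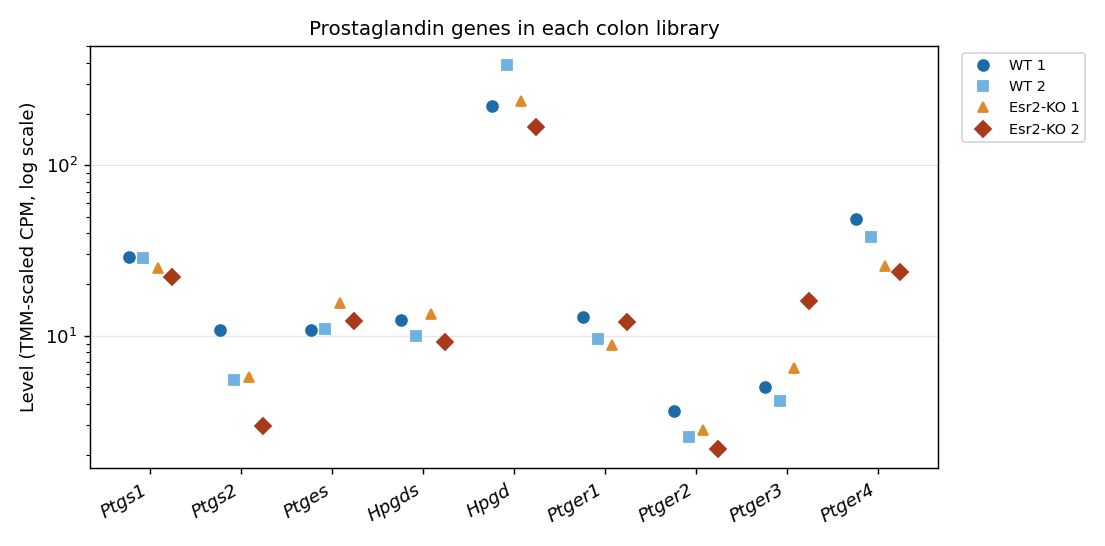
Level of the 9 tested members in each library (TMM-scaled CPM, log axis), with 1 symbol per library and no averaging. Hpgd is the highest member in each library, the Esr2-KO symbols of Ptger4 (25.6 and 23.7 CPM) lie below the WT ones (48.4 and 37.9 CPM), and those of Ptger3 (6.46 and 16.0 CPM) above (4.98 and 4.17 CPM).

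Levels were compared between genes per kilobase of exon sequence, the union of all annotated exons in GENCODE M21. In WT colon Hpgd was far above the others, at 133 and 230 CPM per kb. Ptgs1 (7.51 and 7.35 CPM per kb) and Ptger4 (7.29 and 5.71) followed, then Ptges (2.74 and 2.79). The breakdown enzyme was thus the most abundant member, and the constitutive cyclooxygenase and the EP4 receptor came next. Ptger1, Ptgs2 and Hpgds, at WT means of 2.05 ± 0.41, 1.77 ± 0.81 and 1.74 ± 0.27 CPM per kb (SD, n = 2), were not separated beyond their spread. Below them stood Ptger3 (0.804 ± 0.101) and Ptger2 (0.594 ± 0.143), and Ptgds was last at 0.0254 ± 0.0113 CPM per kb.

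In Esr2-KO colon Hpgd (141 and 99.96 CPM per kb) and Ptgs1 (6.46 and 5.67) kept the first places in this order. Ptger4 (3.84 and 3.57 CPM per kb) now overlapped Ptges (3.95 and 3.12). Ptger3 (1.14 and 2.82 CPM per kb) overlapped Ptger1 (1.62 and 2.21), and Ptgs2 (1.26 and 0.646) lay below Hpgds (2.08 and 1.43). The order of Ptger3 therefore differed between the genotypes, from the eighth place to the fifth by group means, with a wide gap between the Esr2-KO libraries. These levels describe the libraries and were not tested between genes.

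Among the synthesis genes, Ptgs1 (chromosome 2, 36230426 to 36252272, GRCm38) stood at 29.2 and 28.5 CPM in the WT libraries against 25.1 and 22.0 CPM in the Esr2-KO ones. Both Esr2-KO values lay below both WT values, by a small margin. This gave a log2 fold change of -0.29 ± 0.14 (SE, n = 2 per group, edgeR adjusted p = 0.292). Ptgs2 (chromosome 1, 150100031 to 150108227) stood at 10.7 and 5.46 CPM in the WT libraries, compared with 5.76 and 2.96 CPM in the Esr2-KO ones. WT 1 was high and Esr2-KO 2 low, while WT 2 and Esr2-KO 1 were alike, so that the groups overlapped. Its log2 fold change of -0.89 ± 0.43 (SE, edgeR adjusted p = 0.304) was -0.32 without WT 1 and -0.49 without Esr2-KO 2. Per length, Ptgs1 transcript exceeded that of Ptgs2 by 3.20 and 6.16 times in the WT libraries and by 5.14 and 8.78 times in the Esr2-KO libraries, ranges that overlap.

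Ptges, the inducible prostaglandin E synthase (chromosome 2, 30889471 to 30929863), stood at 10.8 and 10.95 CPM in the WT libraries against 15.5 and 12.3 CPM in the Esr2-KO ones. It was the synthesis gene with both Esr2-KO libraries above the WT ones, with a log2 fold change of 0.36 ± 0.19 (SE, n = 2 per group, edgeR adjusted p = 0.352), which was 0.18 without Esr2-KO 1 and 0.52 without Esr2-KO 2. Hpgds, the hematopoietic prostaglandin D synthase (chromosome 6, 65117293 to 65144908), gave 12.4 and 9.97 CPM in the WT libraries, compared with 13.4 and 9.18 CPM in the Esr2-KO ones. Both groups covered the same range, and the log2 fold change was 0.01 ± 0.25 (edgeR adjusted p = 0.984), with a sign that turned with the scaling (-0.13 with library totals, -0.01 with upper-quartile factors). Ptgds, the lipocalin-type prostaglandin D synthase (chromosome 2, 25466709 to 25470046), was counted 2 times and 1 time in the WT libraries, and 0 and 5 times in the Esr2-KO ones. No more than these few reads came from it in any library, and no fold was computed.

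Tuft cells, epithelial chemosensory cells, are known to express Ptgs1 and Hpgds. A list of 10 other tuft cell markers was summed beside them and came to 68.3 and 79.8 CPM in the WT libraries against 40.8 and 26.8 CPM in the Esr2-KO ones. All 9 tested markers had a negative log2 fold change, and none passed. Hpgds did not show this split, and the part of tuft cells in the lower Ptgs1 was not tested. Mast cells, which also make prostaglandin D2, had markers that summed to 3.99 and 3.68 CPM in the WT libraries, compared with 10.6 and 6.15 CPM in the Esr2-KO ones, with Tpsab1 at 0 in all libraries. Among the tested ones, the groups were apart in Cma1 (0.165 and 1.35 against 4.15 and 3.94 CPM) and Mcpt4 (0.220 and 0.230 against 0.585 and 0.607). The groups overlapped in the rest of the tested mast cell markers, and none passed. In bulk tissue, fewer cells of a type and less RNA per cell cannot be told apart.

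Hpgd (chromosome 8, 56294585 to 56321043) is the member that removes the signal. It stood at 224 and 387 CPM in the WT libraries against 238 and 168 CPM in the Esr2-KO ones. WT 2 was high and the other libraries were closer together, so that the groups overlapped. Its log2 fold change of -0.59 ± 0.28 (SE, n = 2 per group, edgeR adjusted p = 0.299) was -0.13 without WT 2. The level of Ptgs2 relative to Hpgd, per length, was 1.76% and 0.519% in WT and 0.891% and 0.646% in Esr2-KO. The Esr2-KO values lay within the WT range.

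**Figure D2:**
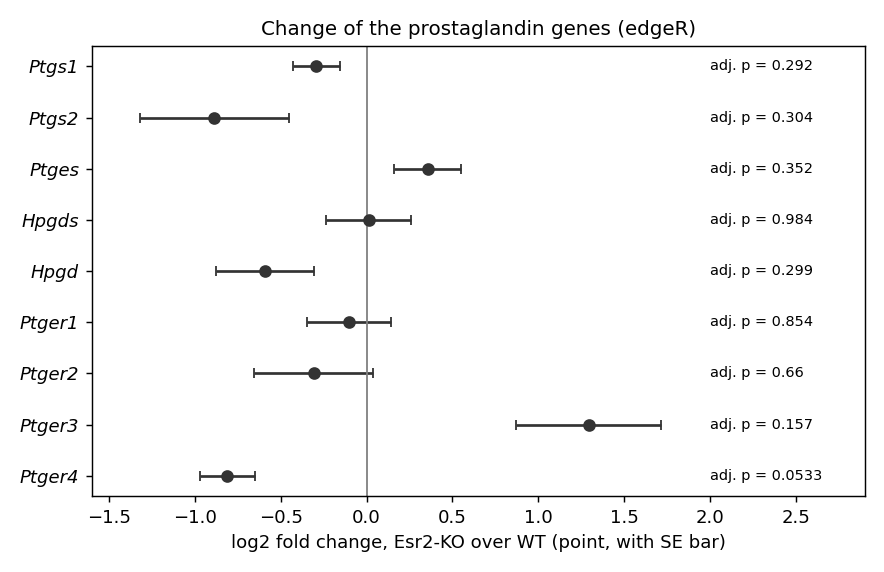
Fitted log2 fold change of Esr2-KO over WT for the 9 tested members (point) with its standard error (bar) and edgeR adjusted p. Ptger4 at -0.81 and Ptger3 at 1.29 have bars well away from 0, and neither adjusted p (0.0533 and 0.157) is under 0.05. The bars of Ptgs1, Ptgs2, Ptges and Hpgd also miss 0.

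Among the receptors, Ptger4 (EP4, chromosome 15, 5206661 to 5244187) had the smallest p of all members. It stood at 48.4 and 37.9 CPM in the WT libraries, compared with 25.6 and 23.7 CPM in the Esr2-KO ones. Both Esr2-KO libraries were well below both WT libraries and close to each other. The means were 43.2 ± 7.4 and 24.6 ± 1.3 CPM (SD, n = 2), 0.570 times the WT level, with a log2 fold change of -0.81 ± 0.16 (SE, edgeR adjusted p = 0.0533). It thus narrowly missed the threshold in the quasi-likelihood test. It passed with DESeq2 (adjusted p = 8.01e-04) and did not with limma-voom (0.0566). Without Esr2-KO 2 the log2 fold change was -0.75 (adjusted p = 0.0905), and without WT 1 it was -0.62 (0.264). Ttc33, which shares 82 exon bases with Ptger4 on the opposite strand, stood at 29.4 and 34.1 CPM in the WT libraries against 31.7 and 25.1 CPM in the Esr2-KO ones. Gm15937, a processed pseudogene, shares 1015 exon bases with Ptger4, also on the opposite strand. It was counted 0 and 1 times in the WT libraries, and 1 and 4 times in the Esr2-KO ones.

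Ptger3 (EP3, chromosome 3, 157566892 to 157645888) went the other way. It stood at 4.98 and 4.17 CPM in the WT libraries, compared with 6.46 and 16.0 CPM in the Esr2-KO ones. Esr2-KO 2 was far above the rest, while Esr2-KO 1 exceeded WT 1 by a smaller step. This gave a log2 fold change of 1.29 ± 0.42 (SE, n = 2 per group, edgeR adjusted p = 0.157), and 0.50 without Esr2-KO 2 (adjusted p = 0.544). DESeq2 gave an adjusted p of 0.0225 and limma-voom 0.245. Esr2-KO 2 is also the library with 18.6% of its counts from pancreatic acinar genes, and it held 154 counts of Ins1 and 512 of Ins2, the insulin genes of pancreatic islets, against 0 to 6 counts in the others. These 2 genes were chosen after the values were seen, and the part of pancreatic tissue in the level of Ptger3 was not tested.

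Ptger2 (EP2, chromosome 14, 44988195 to 45003820), the other receptor that raises cyclic AMP, stood at 3.61 and 2.56 CPM in the WT libraries against 2.81 and 2.16 CPM in the Esr2-KO ones. The groups overlapped, with a log2 fold change of -0.31 ± 0.35 (SE, n = 2 per group, edgeR adjusted p = 0.660), and of -0.04 without WT 1. Ptger1 (EP1, chromosome 8, 83666678 to 83672753) gave 12.8 and 9.60 CPM in the WT libraries, compared with 8.86 and 12.1 CPM in the Esr2-KO ones, a log2 fold change of -0.10 ± 0.24 (SE, edgeR adjusted p = 0.854). Ptgs1, Ptger1, Ptger2 and Ptger4 share exon bases with genes on the opposite strand. The kit was directional per the labels, but whether counting used strand is not stated, and the values of these 4 members are uncertain in this respect.

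The make-up of the EP receptor transcripts was described within each library, where scaling between libraries plays no part. Ptger4 made up 65.0% and 65.7% of the summed level of the receptors per length in WT, and 53.8% and 39.6% in Esr2-KO. Ptger3 made up 7.82% and 8.43% in WT and 15.9% and 31.3% in Esr2-KO. The WT libraries were nearly identical in this make-up, and the Esr2-KO libraries lay apart from them and from each other. Per length there were 8.31 and 7.79 Ptger4 transcripts for each of Ptger3 in WT, against 3.38 and 1.26 in Esr2-KO. An exact two-sided permutation test of this log ratio gave p = 0.333, the smallest that 2 libraries against 2 can give. Ptger4 and Ptger3 each kept the groups apart in CPM, in opposite directions. Their ratio was therefore bound to separate the groups, and this p adds no support. Without Ptger1, Ptger4 made up 82.3% in both WT libraries, and 69.6% and 52.4% in Esr2-KO.

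In raw counts, Ptger3 held 9.33% of the reads of this pair in WT 1 (95% exact binomial interval 8.07 to 10.7) and 9.90% in WT 2 (8.42 to 11.5). The shares were 20.2% in Esr2-KO 1 (17.8 to 22.7) and 40.4% in Esr2-KO 2 (37.4 to 43.4). The intervals cover counting error only. The WT shares agree within counting error and those of the Esr2-KO libraries do not. Both Esr2-KO shares exceeded both WT shares, as the CPM values of both genes already required. Esr2-KO 2 is the library with 18.6% of its counts from pancreatic acinar genes. The part of pancreatic tissue in these shares was not tested. In counts, Ptger4 was lower in both Esr2-KO libraries (874 and 625, against 1759 and 1320 in WT).

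**Figure D3:**
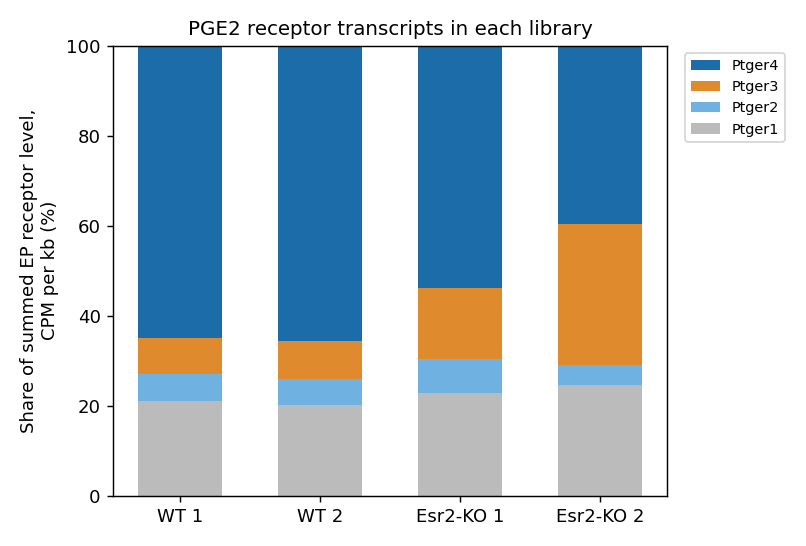
Share of each EP receptor gene in the summed EP receptor level of a library (percent of CPM per kb, stacked, 1 bar per library). Ptger4 fills 65.0% and 65.7% of the WT bars and 53.8% and 39.6% of the Esr2-KO bars, and Ptger3 widens from 7.82% and 8.43% to 15.9% and 31.3%.

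The 3 genes with a profile most like that of Ptger4 over the 4 libraries were Fbxo5, Kif2c and Pola1, with distances of 0.07, 0.07 and 0.08 between centred log2 CPM values. Genes averaging under 2 log2 CPM were not considered. Their log2 fold changes were -0.81 ± 0.21, -0.90 ± 0.21 and -0.81 ± 0.19 (SE, n = 2 per group), with edgeR adjusted p values of 0.0979, 0.0732 and 0.0849. With 4 libraries such likeness is a description of these profiles.

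Upstream of the cyclooxygenases, some phospholipases were called. Of 16 phospholipase A2 genes that can release arachidonate, 12 were tested, 4 rose (33.3%, against 1.3% of all genes that rose) and none fell. They were Pla2g4f, Pla2g5, Pla2g2f and Pla2g10, a cytosolic enzyme and 3 secreted ones. The median log2 fold change of the 12 was 0.32, with 7 positive and 5 negative. The lists of this and the following groups hold genes by their known roles, and they were drawn up with earlier results of these data known, so that their counts are descriptions.

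Pla2g4f (chromosome 2, 120299957 to 120314165) stood at 3.44 and 6.81 CPM in the WT libraries, compared with 26.1 and 25.0 CPM in the Esr2-KO ones. The Esr2-KO libraries were alike and several times above both WT libraries, with a log2 fold change of 2.32 ± 0.32 (SE, n = 2 per group, edgeR adjusted p = 0.0257). Pla2g5 (chromosome 4, 138799244 to 138863482) stood at 13.6 and 9.86 CPM in the WT libraries against 39.0 and 29.9 CPM in the Esr2-KO ones (1.55 ± 0.21, edgeR adjusted p = 0.0257). Pla2g2f, its neighbour (chromosome 4, 138750533 to 138757626), stood at 57.6 and 52.3 CPM in the WT libraries, compared with 127 and 96.7 CPM in the Esr2-KO ones (1.03 ± 0.16, edgeR adjusted p = 0.0302). In both, each Esr2-KO library was clear of the WT range. Pla2g10 (chromosome 16, 13715057 to 13730983), the most abundant of the 4, stood at 84.8 and 88.2 CPM in the WT libraries against 145 and 132 CPM in the Esr2-KO ones (0.68 ± 0.12, edgeR adjusted p = 0.0385).

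How far these calls rest on single libraries varied. Pla2g4f passed under each alternative that was run. The call of Pla2g5 ended without WT 2 (adjusted p = 0.0584). That of Pla2g2f ended without WT 1 (0.0838), without WT 2 (0.0810) and with library totals (0.0694). Pla2g10 did not pass without WT 1 (0.166), without WT 2 (0.0936), with library totals (0.248) or under the replicate block (0.0578). All 4 kept their call when Esr2-KO 2 was left out, and their fold changes were positive under each alternative that was run.

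Other phospholipases in the same stretch of chromosome 4 did not pass. Pla2g2d was at 1.16 and 1.55 CPM in the WT libraries, compared with 2.84 and 1.21 CPM in the Esr2-KO ones. Pla2g2a, annotated as a polymorphic pseudogene in this strain's reference, was at 2.56 and 1.03 against 3.83 and 1.21 CPM. Pla2g4a, the cytosolic enzyme usually held to feed the cyclooxygenases, lies near Ptgs2 (chromosome 1, 149829618 to 149961290). It stood at 101.4 and 104.6 CPM in the WT libraries against 84.6 and 54.5 CPM in the Esr2-KO ones. Both Esr2-KO libraries lay below the WT ones, with a log2 fold change of -0.57 ± 0.20 (SE, n = 2 per group, edgeR adjusted p = 0.186), opposite in sign to the 4 genes that rose.

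**Figure D4:**
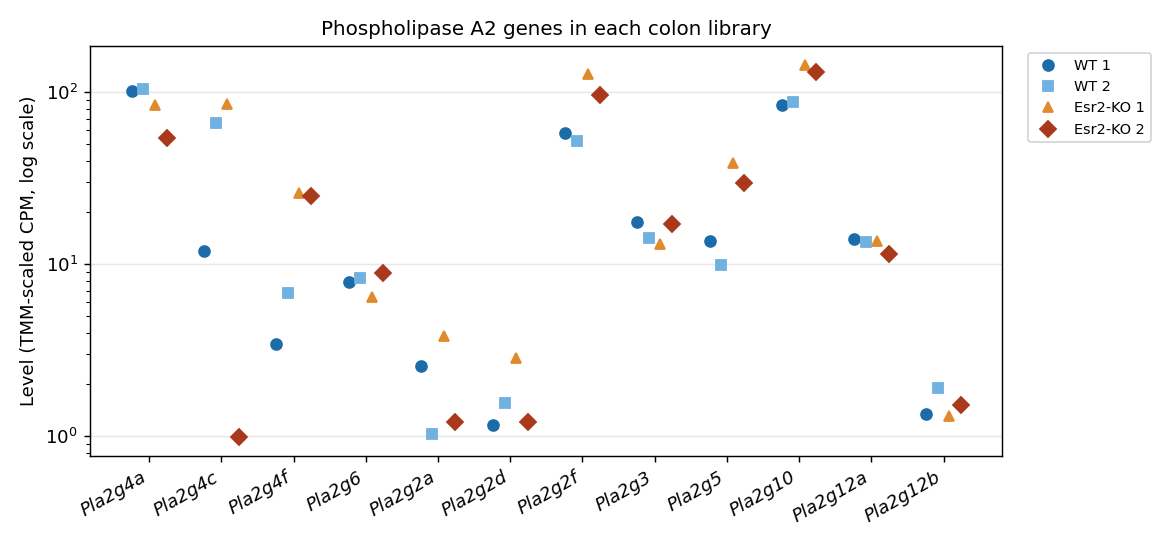
Level of the 12 tested phospholipase A2 genes in each library (TMM-scaled CPM, log axis, 1 symbol per library). In Pla2g4f, Pla2g2f, Pla2g5 and Pla2g10 both Esr2-KO symbols lie above both WT symbols, while Pla2g4c spans 0.986 to 85.4 CPM within the Esr2-KO group.

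None of 7 other prostanoid synthases passed in edgeR's quasi-likelihood test. At an unadjusted p of 0.05, 3 did (42.9%, against 20.6% of all genes). Akr1b3, an aldose reductase that can form prostaglandin F2α, came closest, at 44.9 and 43.4 CPM in the WT libraries, compared with 63.7 and 70.7 CPM in the Esr2-KO ones. The fit gave a log2 fold change of 0.61 ± 0.12 (SE, n = 2 per group, edgeR adjusted p = 0.0508), and it passed with DESeq2 (0.00174) and limma-voom (0.0495). Fam213b, also a prostaglandin F synthase, stood at 7.90 and 10.1 against 13.0 and 15.1 CPM (0.64 ± 0.21, edgeR adjusted p = 0.157). Both Esr2-KO libraries exceeded the WT ones in each. The constitutive prostaglandin E synthases Ptges2 (39.5 and 39.1 against 36.5 and 40.7 CPM) and Ptges3 (40.0 and 43.5 against 39.7 and 35.0 CPM) were close between the groups, with log2 fold changes of -0.03 ± 0.12 and -0.16 ± 0.13.

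Other prostanoid receptors were scarce. Of 5, 3 were tested, none passed with edgeR, DESeq2 or limma-voom, and none had an unadjusted p under 0.05 in edgeR. Ptgfr, the prostaglandin F receptor, stood at 2.70 and 1.06 CPM in the WT libraries against 1.08 and 0.645 CPM in the Esr2-KO ones (-1.11 ± 0.58, SE, n = 2 per group, edgeR adjusted p = 0.335), and its log2 fold change was -0.29 without WT 1. Ptgir, the prostacyclin receptor, stood at 2.97 and 3.02 against 2.78 and 1.59 CPM (-0.45 ± 0.38, edgeR adjusted p = 0.545), with a log2 fold change of -0.10 without Esr2-KO 2. The prostaglandin D2 receptors were hardly seen, with 0 to 5 counts of Ptgdr and 0 to 8 of Ptgdr2 per library.

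Of 5 genes of prostaglandin transport and breakdown none passed in edgeR's quasi-likelihood test or with limma-voom. An unadjusted p under 0.05 in edgeR was reached by 2 (40.0%, against 20.6% of all genes). Slco2a1, the carrier that takes prostaglandins into cells, stood at 44.6 and 56.7 CPM in the WT libraries, compared with 78.6 and 77.4 CPM in the Esr2-KO ones. Its Esr2-KO libraries lay well above the WT ones (0.62 ± 0.14, SE, n = 2 per group, edgeR adjusted p = 0.0719). DESeq2 called it (0.00490). Abcc4, a pump that exports them, stood at 16.3 and 15.4 against 20.8 and 26.3 CPM (0.57 ± 0.17, edgeR adjusted p = 0.132).

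The neighbouring branch of leukotrienes gave no call among 8 tested genes of 14 in edgeR's quasi-likelihood test or with limma-voom, and 1 with DESeq2. At an unadjusted p of 0.05 in edgeR 1 passed (12.5%, against 20.6% of all genes), the same gene. This was Lta4h, the leukotriene A4 hydrolase, at 81.6 and 87.1 CPM in the WT libraries against 114 and 121 CPM in the Esr2-KO ones (0.48 ± 0.11, SE, n = 2 per group, edgeR adjusted p = 0.0758, DESeq2 0.00755, and 0.0192 in edgeR with no low-count filter). Cysltr1, a receptor of cysteinyl leukotrienes, stood at 5.53 and 6.41 against 4.79 and 3.41 CPM (-0.54 ± 0.28, edgeR adjusted p = 0.331), with a log2 fold change of -0.31 without Esr2-KO 2. Both genes kept their groups apart, as did 54.7% of all genes tested, and they went in opposite directions.

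Genes that respond to cyclic AMP, the messenger of EP2 and EP4, were read as a further list. None of 12 passed in edgeR's quasi-likelihood test or with limma-voom, and DESeq2 called 1. In edgeR 2 had an unadjusted p under 0.05 (16.7%, against 20.6% of all genes), and the median log2 fold change was -0.03. Per1, a clock gene as well as a cyclic AMP target, stood at 9.75 and 16.8 CPM in the WT libraries, compared with 29.3 and 26.8 CPM in the Esr2-KO ones (1.08 ± 0.26, SE, n = 2 per group, edgeR adjusted p = 0.0843). It was the gene called by DESeq2 (0.00163), and it also passed in edgeR with no low-count filter (9.10e-04), without WT 2 (0.0325) and without Esr2-KO 1 (0.0456). Nr4a2, an orphan nuclear receptor, was on the other side, at 7.30 and 4.97 against 3.45 and 2.35 CPM (-1.07 ± 0.33, edgeR adjusted p = 0.139).

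Of 11 genes known to induce Ptgs2, 8 were tested and 1 rose (12.5%, against 1.3% of all genes that rose), while 5 had an unadjusted p under 0.05 (62.5%, against 20.6% of all genes). Hif1a, the oxygen-regulated transcription factor, stood at 113 and 85.9 CPM in the WT libraries against 199 and 177 CPM in the Esr2-KO ones (0.92 ± 0.16, SE, n = 2 per group, edgeR adjusted p = 0.0436). The call ended without WT 2 (0.0963) and with library totals (0.124). Il1b, a cytokine that induces Ptgs2, stood at 5.01 and 2.07 CPM in the WT libraries, compared with 1.08 and 1.33 CPM in the Esr2-KO ones (-1.56 ± 0.50, edgeR adjusted p = 0.149), with WT 1 highest as for Ptgs2. Cebpb, Cebpd and Rela, the rest with an unadjusted p under 0.05, were higher in Esr2-KO, like Hif1a and unlike Ptgs2 and Il1b. Their groups did not overlap, and the log2 fold changes were 0.70 ± 0.21, 0.78 ± 0.24 and 0.48 ± 0.13 (SE). The edgeR adjusted p values were 0.135, 0.136 and 0.117. Cebpd was called by DESeq2 on all genes with a count, and Rela too on the genes of the edgeR fit. Tnf had 0 counts in each library. Over all 7 lists, 5 of 55 tested genes rose (9.09%), none fell, and the median log2 fold change was 0.06.

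Markers of the cell types known to express these members were summed per library. Macrophage markers gave 437, 438, 441 and 442 CPM in the order WT 1, WT 2, Esr2-KO 1 and Esr2-KO 2, and fibroblast markers gave 2324, 2421, 2497 and 2551 CPM. Smooth muscle markers gave 6444, 4973, 5048 and 6378 CPM. The Esr2-KO to WT ratios of these 3 sums were 1.01, 1.06 and 1.001. Enteric neuron and glia markers were lower in Esr2-KO (75.7 and 67.9 against 53.0 and 50.3 CPM), with 8 of 8 negative and none past the threshold. Ptger3 is known in enteric neurons. Adipocyte markers varied within both groups, at 114 and 257 CPM in the WT libraries against 269 and 67.6 CPM in the Esr2-KO ones. The part of these cell types in the members' levels was not tested.

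**Figure D5:**
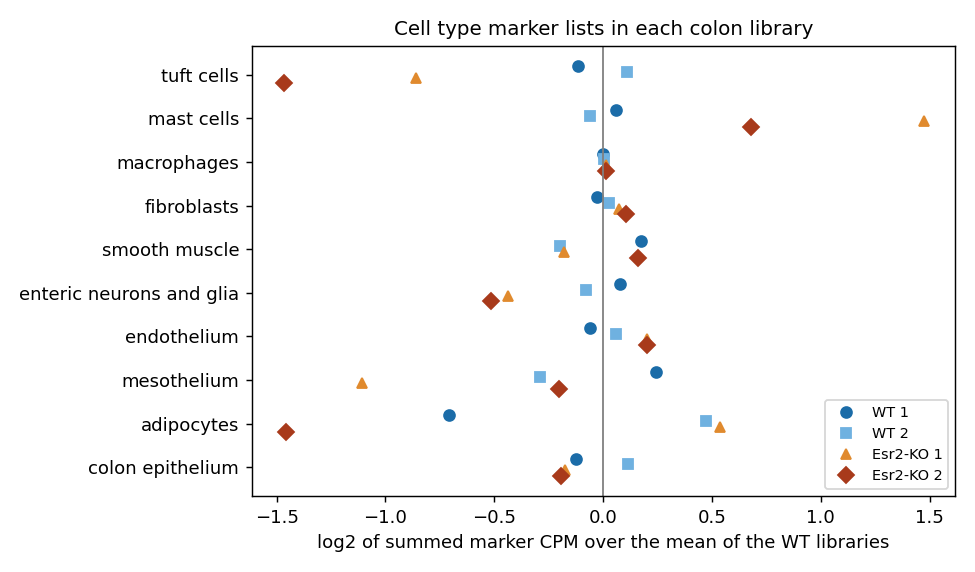
Summed CPM of each cell type marker list relative to the mean of the WT libraries (log2 scale, 1 symbol per library, 0 marks the WT mean). Tuft cell, neuron and glia and, by a small margin, colon epithelium lists lie left of both WT symbols in both Esr2-KO libraries. The mesothelium list lies left of 0 in both Esr2-KO libraries and overlaps the WT range. The mast cell list lies to the right in both (10.6 and 6.15 CPM, against 3.99 and 3.68 CPM in WT). Macrophage, fibroblast and endothelium lists stay near 0, and the adipocyte list is spread widely within both groups.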

How the data were processed

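Colon RNA was isolated by Trizol, and after removal of ribosomal RNA directional libraries were made, per the labels' protocols. The authors deposited whole-number counts per gene symbol with no normalization, as the values show. HISAT2 and mm10 are named per the submitters' processing notes. For the counting program, annotation and use of strand, nothing is given in the sources used here.

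Genes were kept with filterByExpr (minimum count 10, minimum total 15), scaled by TMM and compared by edgeR (version 4.0.16, R 4.3.3, quasi-likelihood test, two-sided, 2 residual degrees of freedom), with Benjamini-Hochberg adjustment over 17169 genes at a threshold of 0.05. Standard errors came from the F statistic. The common biological coefficient of variation was 0.233. Alternatives were other scalings, filters, DESeq2 1.42.0 (on all genes with a count, and on the genes of the edgeR fit), limma-voom (limma 3.58.1), a block for the replicate number, leaving out each library, and leaving out pancreatic acinar genes. Exon lengths and positions are from GENCODE M21 (GRCm38), counted from 1. Replicates of a group differed by far more than sampling noise (chi-square per degree of freedom of 39.7 in WT and 478 in Esr2-KO).

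The members and gene lists were chosen with earlier results of these data known. Named were all members, Esr2, the genes past the threshold of each pathway list (otherwise the 2 with the smallest p) and the 3 genes nearest to the member with the smallest p, by Euclidean distance of centred log2(CPM + 0.5). Pla2g4a, Pla2g4c, Pla2g2a, Pla2g2d, Ptges2, Ptges3, Ptgdr, Ptgdr2, Il1b, Tnf, Car1, Ins1, Ins2 and Ttc33 were named beyond this rule. So were Cebpb, Cebpd, Rela, Cma1, Mcpt4, Gm15937, Ptgs2os and Ptgs2os2.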

Additional observations from a re-analysis of the deposited data

How the results depend on the processing

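The number of members called by edgeR's quasi-likelihood test, 0, was 1 with library totals (Ptger4), 1 without pancreatic acinar genes (Ptger4), 2 with no low-count filter and 2 with DESeq2 on all genes with a count (Ptger3 and Ptger4 in both), and 0 to 2 with each library left out in turn. The 2 calls came without Esr2-KO 1. The 5 other pathway genes called became 2 with library totals, 13 with no filter and 10 with DESeq2 on all genes with a count, and 3 to 13 with a library left out. Over all genes, 462 calls became 695 with library totals (208 higher, 487 lower), 1916 with no filter, 1693 with DESeq2, and 165 (without WT 1) to 1804 (without Esr2-KO 1) with a library left out. Library totals shifted the median of all genes to -0.17. Hpgds turned to -0.0081 with upper-quartile factors, -0.13 with library totals and -0.0057 under the replicate block, and ranged from -0.28 to 0.26 with a library left out. Ptger1 ranged from -0.33 to 0.12 and Esr2 from -1.42 to 0.35 when a library was left out, and the Esr2-KO to WT ratio of Ptgs2 per Hpgd from 0.436 to 1.48. DESeq2 on the 17169 genes of the edgeR fit, chosen after seeing the data, called 2 members (Ptger3 and Ptger4), 11 pathway genes and 1730 genes in all. The causes were not tested. With the replicate block 490 genes and no member were called. The deviations of same-numbered libraries had a correlation of -0.0842. A single correlation over all genes cannot decide whether the numbers pair the libraries, and this is not known. Expression was not separated below about 3 counts per library, which limits Ptgds, Ptgdr and Ptgdr2, and with 2 libraries per group small fold changes were not detectable.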

Other observations

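Pla2g4c, a cytosolic phospholipase A2, varied more between libraries than any other tested gene of the pathway lists, by 86.6 times from the lowest to the highest. It stood at 11.9 and 66.5 CPM in the WT libraries against 85.4 and 0.986 CPM in the Esr2-KO ones, with 433, 2312, 2921 and 26 counts. The spread lay within the genotypes, and the fitted log2 fold change, 0.15 ± 1.44, had a wide error (SE, n = 2 per group, edgeR adjusted p = 0.922). The summed adipocyte markers were lowest and highest in the same libraries, at 114 and 257 CPM in the WT libraries, compared with 269 and 67.6 CPM in the Esr2-KO ones, and the part of adipocytes in this spread was not tested.

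Ptgs2os2, a transcript named for the strand opposite Ptgs2, was counted 18 and 10 times in the WT libraries, against 6 and 1 in the Esr2-KO ones, below the filter on low counts. Ptgs2os, named likewise and also below the filter, was counted 5 and 6 times in WT, against 5 and 0 in Esr2-KO, so that its groups overlapped. Ptgs2 itself reached 390 and 190 counts in the WT libraries, against 197 and 78 in the Esr2-KO ones.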
